A study of Mus musculus with 15 samples.

Results

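Amino acid transporter genes of the mouse uterus were followed after a single injection of estradiol (E2) or of the weak estrogen estriol (E3). The genes are the members of 7 solute carrier families that carry amino acids or their relatives across membranes (Slc1, Slc3, Slc6, Slc7, Slc36, Slc38, and Slc43). They were chosen by gene symbol, and a gene was tested when 1 of its probes was well above background on at least 2 of the 3 arrays of any group. Of 55 such genes with 95 probes on the array, 48 genes with 79 probes were tested, among 34760 probes tested in all. The others were not well above background often enough to be tested. Each gene is represented by its brightest probe, and other probes are described where they differ.

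The mice were ovariectomized adults of 10 weeks or more that rested 10 to 14 days, so all groups lacked ovarian estrogen before the injection. There were 5 groups of 3 samples, each on its own one-color Agilent array: saline vehicle collected at 24 hr, 250 ng E2 at 2 hr, 250 ng E3 at 2 hr, 250 ng E2 at 24 hr, and 250 ng E3 at 24 hr, all injected ip in 100 ul. The saline arrays at 24 hr served as vehicle for both times. No saline arrays were made at 2 hr, so in 2 hr comparisons with saline the estrogen cannot be told apart from time since injection. The E2 2 hr mice are labelled WT for Esr1 and strain C57bl6/Jx129, and the other 12 samples carry strain C57bl6/J and no genotype. The E2 2 hr arrays also lay on slides of their own and were read on another scanner on another day, so in every comparison with that group compound or time cannot be told apart from strain, slide, and scan. One slide held saline replicate 3 and all E3 2 hr arrays. The E2 24 hr arrays lay on a pair of slides and the E3 24 hr arrays on 1, with no other group on them, so at 24 hr the slide cannot be told apart from the group either. The labels speak of single uteri at homogenization, whereas the study's methods speak of RNA from pooled tissue, so an array may stand for 1 mouse or for several, and the errors and p-values measure only the spread between these samples.

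Uterine markers (*Esr1*, *Pgr*, *Hoxa10*, *Hoxa11*, *Wnt7a*) had a mean log2 level of 0.99 to 1.89 over the 15 arrays, where 0 is the 75th percentile of an array. Transcripts of other tissues were also present. The mean of 13 liver markers was -2.14 to -0.21 on the saline arrays, -4.09 to -2.82 on E3 2 hr, -6.22 to -5.25 on the 24 hr estrogen arrays, and -8.29 to -8.17 on E2 2 hr, where 4 or 5 of the 13 were well above background. The mean of 13 exocrine pancreas markers was 5.82 and -0.29 on E3 2 hr replicates 2 and 3, 4.51 and -1.44 on E2 24 hr replicates 2 and 3, and -6.61 to -4.69 on the other 11 arrays. Markers of uterine epithelium averaged 0.94 to 1.16 on saline, 0.53 to 0.96 at 2 hr, 1.93 to 2.04 on E2 24 hr, and 1.46 to 1.56 on E3 24 hr. Of these 10 markers, 7 were higher and 2 lower after each estrogen at 24 hr at limma adjusted p under 0.05 (90%, against 61.4% and 34.1% of all probes). At 2 hr, 2 were higher and 6 lower after E2 (80%, against 61.9%), and 1 higher and 3 lower after E3 (40%, against 49.7%). Stroma markers averaged 3.64 to 3.74 on saline and 2.65 to 3.15 at 2 hr, where 3 of 8 were called lower after each estrogen (37.5%, against 10.7% and 9.11% of all probes). They averaged 3.78 to 4.05 on the 24 hr estrogen arrays, where 2 of the 8 were called higher after each estrogen. Of all probes, 6.94% were called higher after E2 at 24 hr and 1.85% after E3. Of the 8 stroma markers, 5 had means below saline after each estrogen at 24 hr. Smooth muscle markers averaged 4.48 to 4.51 on saline, 4.28 to 4.57 at 2 hr, and 4.99 to 5.38 at 24 hr after estrogen. The part of these cell types in the transporter changes was not tested. In whole uteri, fewer cells of a type and less RNA per cell cannot be told apart.

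Amino acid transporters work in divided labor. Heterodimeric exchangers of the Slc7 family, such as LAT1 (*Slc7a5*), reach the surface only with a heavy chain, 4F2hc (*Slc3a2*) or rBAT (*Slc3a1*), and swap one amino acid for another. Sodium-driven carriers of the Slc38, Slc1, and Slc6 families concentrate glutamine, alanine, glutamate, taurine, or GABA and so feed the exchangers. LAT3 (*Slc43a1*) and LAT4 (*Slc43a2*) pass large neutral amino acids along their gradients, and Slc36 members couple small neutral amino acids to protons. In the uterus, estrogen is known to bring about water uptake within hours and growth of the epithelium by the next day, and leucine and arginine supply is a known input to growth signaling. E3 differs from E2 by an additional hydroxyl group on the D ring.

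The array reads each transcript with 60-base oligonucleotides, and for several transporters different oligonucleotides of the same gene gave different answers. The first 30 bases of the probes behind the main results are printed here in lower case, 5′ to 3′, with the array annotation's position of the probe (build mm7), since the later results turn on which of them is read.
*Slc7a5*, chr8:120523247-120523306, minus strand: agtgctgtggttgtaatgtcttttactatt
*Slc6a13*, brightest, chr6:121362880-121362939, plus strand: ggtccacacattgtgacgtgcccgaatcaa
*Slc6a13*, other, chr6:121362860-121362919, plus strand: tgatgcccctattccagggtggtccacaca
*Slc43a2*, brightest, chr11:75616125-75616184, plus strand: gcctatcatttataaccaacctttagcctt
*Slc43a2*, other, chr11:75656018-75656077, plus strand: gagagctattgtgtattttccaaaccatct
*Slc7a6*, brightest, chr8:104796102-104796161, plus strand: tgttgaggatctaggcatgaaagtcctcta
*Slc7a6*, second, chr8:104797425-104797484, plus strand: aggacatttcaagttttagaatttgtgaac
*Slc7a6*, most distant, chr8:104779430-104779489, plus strand: tttggttgtaaatatagtttattgacaatt
*Slc1a3*, brightest, chr15:8463725-8463784, minus strand: gtttacccggtgtgatattttttatactaa
*Slc1a3*, second, chr15:8510062-8510121, minus strand: cacttgaggctagaattttagtcttgtctt
*Slc36a2*, brightest, chr11:55115389-55115448, minus strand: gcaatgaacatcttctgttacctgtcgggc
*Slc36a2*, other, chr11:55125250-55125309, minus strand: tcaagactagtggttgtacataattcagtg
The 2 *Slc6a13* probes lie 20 bases apart and overlap. Those of *Slc43a2* lie 39893 bases apart, the most distant *Slc7a6* probe lies 16672 bases from the brightest, and the *Slc1a3* pair lies 46337 bases apart. Of the 48 genes, 28 were read by 1 tested probe and 20 by more.

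At 2 hr after E2, 5 of the 48 transporters rose and 6 fell at p under 0.001 and at least 2-fold (limma), 22.9% against 21.2% of all probes tested, of which 10.6% were higher and 10.7% lower. After E3, 5 rose and 4 fell, 18.8% against 13.8% of all probes, of which 4.68% were higher and 9.11% lower. Both comparisons use the same saline arrays. The share of transporters called after E2 was thus near that of the array as a whole, with a median absolute log2 change of 0.66 over the transporters and 0.56 over all probes. For E3 at 2 hr these medians were 0.56 and 0.41. The genes that rose carry large neutral amino acids, cationic amino acids, and GABA or taurine, and they are described first.

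**Figure D1:**
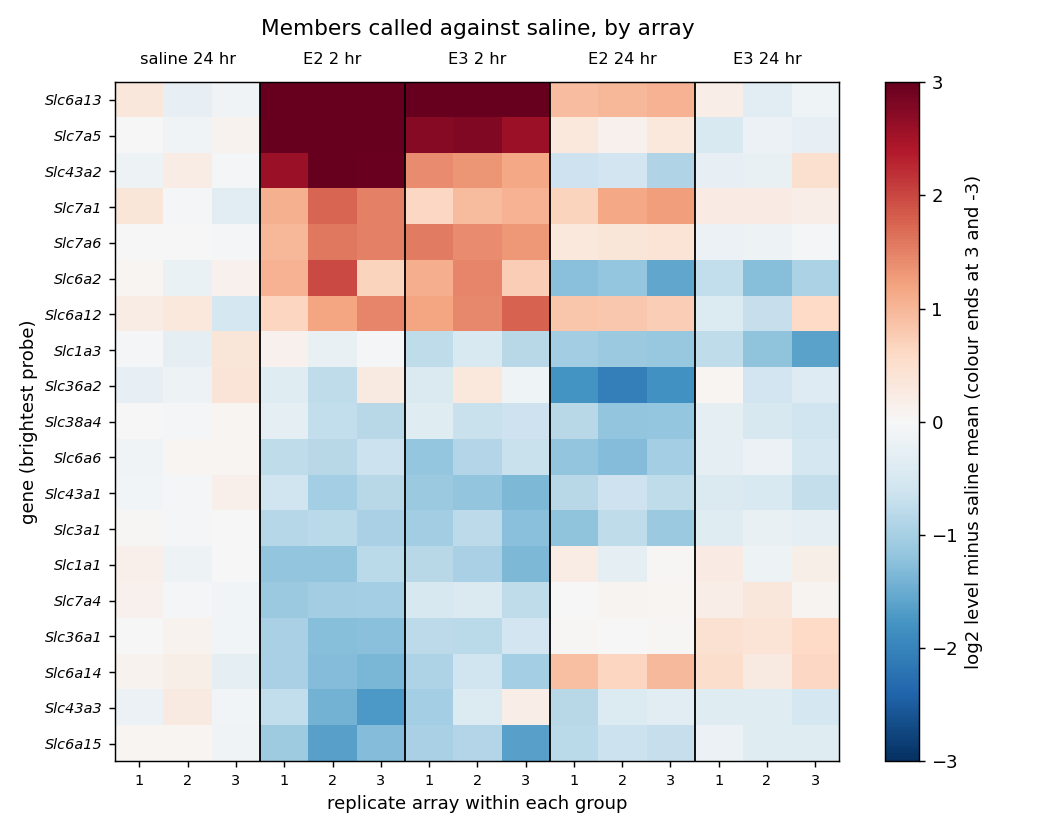
Log2 level of the 19 transporters called in any comparison with saline, minus the mean of the 3 saline arrays, on each of the 15 arrays (columns, replicates 1 to 3 of each group; rows ordered by the E2 2 hr change; red above and blue below saline, with the color ending at 3 and -3). *Slc6a13* and *Slc7a5* stand at the top at 2 hr on all 6 estrogen arrays and are close to saline on the E3 24 hr arrays.

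*Slc7a5*, the LAT1 light chain for leucine and other large neutral amino acids, had log2 levels of -0.11, -0.20, and -0.02 on the saline arrays. It was at 3.09, 3.20, and 3.25 on the E2 2 hr arrays and at 2.63, 2.67, and 2.45 on the E3 2 hr arrays. By 24 hr it had levels of 0.20, 0.02, and 0.20 after E2 and -0.57, -0.28, and -0.35 after E3. The 2 hr arrays lay far above saline without overlap, and the 24 hr arrays lay close to it. It rose 9.78-fold after E2 (log2 3.29 ± 0.10 SE, n = 3 per group, limma adjusted p = 1.22e-09) and 6.47-fold after E3 (log2 2.69, adjusted p = 5.68e-09), and at 24 hr neither change was called (log2 0.25 and -0.29).

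*Slc3a2*, its heavy chain, was on saline at 2.98, 3.00, and 2.93. It stood at 3.16, 3.76, and 3.41 after E2 at 2 hr and at 3.61, 3.68, and 3.55 after E3. At 24 hr its levels were 3.16, 3.33, and 3.08 after E2 and 2.90, 2.95, and 3.04 after E3. All 2 hr arrays lay above all saline arrays, but the changes of 1.39-fold after E2 and 1.56-fold after E3 were under 2-fold and were not called, and its other probe gave log2 changes of 0.25 and 0.70. The log2 changes of the heavy chain were thus 0.48 and 0.64 where those of the light chain were 3.29 and 2.69, a difference between genes that was not tested.

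*Slc7a6*, the y+LAT2 light chain that exchanges cationic for neutral amino acids, read -1.91, -1.90, and -1.94 on saline, -0.91, -0.35, and -0.41 on E2 2 hr, and -0.35, -0.50, and -0.63 on E3 2 hr. At 24 hr it read -1.59, -1.56, and -1.51 after E2 and -2.10, -2.06, and -1.97 after E3. It rose 2.57-fold after E2 (adjusted p = 2.14e-06) and 2.69-fold after E3 (adjusted p = 2.73e-06) at 2 hr, and it was called at 24 hr after neither. The second probe gave 1.12 and 1.28 for these log2 changes. The most distant probe was well above background on no array of saline, E2 24 hr, or E3 24 hr. At 2 hr it was therefore at least 5.99-fold higher after E2 and at least 1.76-fold higher after E3, taking for saline the lowest signal among probes well above background on each array. It was tested only because the 2 hr groups detected it, so these bounds are a description, and its 24 hr changes cannot be read.

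*Slc43a2*, the LAT4 carrier that lets branched-chain amino acids leave the cell, was at -2.17, -1.80, and -2.08 on saline. After E2 it reached 0.58, 1.02, and 0.94 at 2 hr, and after E3 -0.59, -0.69, and -0.86. At 24 hr it read -2.65, -2.60, and -2.91 after E2 and -2.26, -2.23, and -1.53 after E3. The 3 groups of saline, E3 2 hr, and E2 2 hr formed 3 separate steps on this probe. The rise was 7.27-fold after E2 (log2 2.86 ± 0.19 SE, adjusted p = 1.47e-07) and 2.46-fold after E3 (log2 1.30, adjusted p = 0.000129). On the other probe both estrogens gave nearly the same rise, with log2 changes of 1.97 and 1.90, each called.

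Each of the other Slc43 genes was called lower after only 1 of the estrogens at 2 hr. *Slc43a1* (LAT3) read 0.31, 0.33, and 0.54 on saline, -0.20, -0.63, and -0.44 on E2 2 hr, -0.71, -0.78, and -0.96 on E3 2 hr, -0.44, -0.23, and -0.37 on E2 24 hr, and -0.03, -0.06, and -0.31 on E3 24 hr. Every estrogen array was below every saline array, and the 2.31-fold fall after E3 at 2 hr was called (adjusted p = 7.26e-06) while the 1.76-fold fall after E2 was under the 2-fold limit. *Slc43a3*, known as a carrier of purine nucleobases, had levels of 0.84, 1.28, and 0.92 on saline, 0.28, -0.40, and -0.70 on E2 2 hr, -0.00, 0.61, and 1.21 on E3 2 hr, 0.19, 0.61, and 0.69 on E2 24 hr, and 0.64, 0.65, and 0.49 on E3 24 hr. It fell 2.44-fold after E2 at 2 hr (adjusted p = 0.00211), and leaving out any of 12 of the 15 arrays took its limma p over 0.001.

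**Figure D2:**
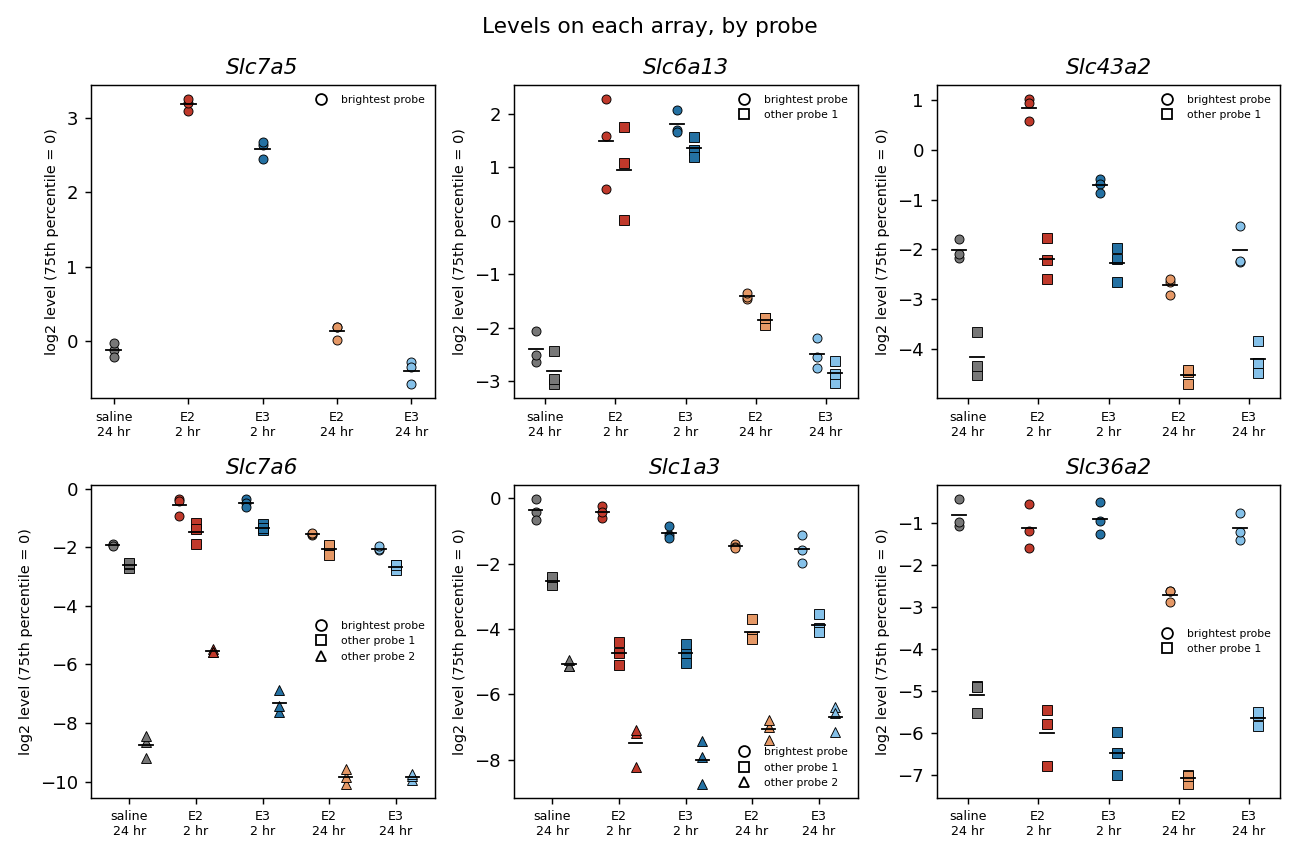
Log2 level (75th percentile of an array at 0) of 6 transporters on each array, by group, with circles for the brightest probe, squares and triangles for other probes of the same gene, and bars for group means of 3 arrays. *Slc6a13* shows the same pattern on both probes, whereas *Slc43a2*, *Slc7a6*, and *Slc1a3* change by different amounts on different probes.

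Among cationic amino acid transporters, *Slc7a1* (CAT-1, for arginine and lysine) was dim, at -6.06, -6.47, and -6.75 on saline. It read -5.35, -4.69, and -4.92 on E2 2 hr, -5.80, -5.47, and -5.40 on E3 2 hr, -5.76, -5.26, and -5.18 on E2 24 hr, and -6.19, -6.18, and -6.22 on E3 24 hr. All 6 arrays of E2 lay above all saline arrays, and it rose 2.72-fold at 2 hr (adjusted p = 7.99e-05) and 2.04-fold at 24 hr (adjusted p = 0.00114, lost without any of 4 single arrays), the only transporter called higher then. The 1.83-fold change after E3 at 2 hr was not called. With normexp background correction neither E2 change was called (log2 0.70 and 0.58), so for this dim probe both calls depend on how background is subtracted. *Slc7a4*, a relative of the cationic carriers, fell 2.08-fold after E2 at 2 hr, from -1.55, -1.74, and -1.75 to -2.78, -2.73, and -2.70 (adjusted p = 2.29e-06), a call near the 2-fold limit that was lost without scaling (log2 -0.97), with quantile normalization (-0.93), and without saline replicate 1 (-0.99). Its levels of -2.15, -2.12, and -2.45 after E3 at 2 hr were between those groups, and at 24 hr it read -1.67, -1.61, and -1.63 after E2 and -1.48, -1.35, and -1.60 after E3.

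*Slc6a13* (GAT2, for GABA and taurine) had the largest rise of the transporters in both 2 hr comparisons. From -2.06, -2.65, and -2.52 on saline it reached 0.59, 1.59, and 2.28 after E2 and 1.71, 2.07, and 1.66 after E3 at 2 hr. At 24 hr it read -1.47, -1.42, and -1.36 after E2 and -2.20, -2.75, and -2.55 after E3. Every 2 hr array stood more than 2 log2 units above every saline array. The E2 24 hr arrays stayed above saline without overlap (log2 0.99, just under 2-fold and not called), and E3 24 hr overlapped saline. The rise at 2 hr was 14.9-fold after E2 (log2 3.90 ± 0.33 SE, adjusted p = 8.57e-07) and 18.7-fold after E3 (log2 4.22 ± 0.33 SE, adjusted p = 8.92e-07), and the overlapping second probe gave 3.77 and 4.18. GAT2 is also known from liver, and the mean of the liver markers was -2.14 to -0.21 on saline and -8.29 to -2.82 on the 2 hr arrays. The part of liver RNA in these levels was not tested.

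*Slc6a12*, the betaine and GABA transporter BGT1 that kidney cells use against osmotic stress, had levels of -4.87, -4.79, and -5.63 on saline. It read -4.46, -3.90, and -3.63 on E2 2 hr, -3.92, -3.65, and -3.34 on E3 2 hr, -4.26, -4.30, and -4.36 on E2 24 hr, and -5.50, -5.79, and -4.50 on E3 24 hr. All arrays of E2 2 hr, E3 2 hr, and E2 24 hr lay above saline. Only the 2.76-fold rise after E3 at 2 hr was called (adjusted p = 0.00265), and leaving out any of 11 single arrays took its limma p over 0.001, as did normexp background correction (log2 1.05). *Slc6a6*, the taurine transporter, went the other way. It read 3.42, 3.58, and 3.57 on saline, 2.76, 2.68, and 2.87 on E2 2 hr, 2.37, 2.64, and 2.86 on E3 2 hr, 2.34, 2.23, and 2.51 on E2 24 hr, and 3.24, 3.34, and 3.00 on E3 24 hr. Each estrogen array was below each saline array, and the 2.24-fold fall after E2 at 24 hr was called (adjusted p = 1.24e-05).

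*Slc6a2*, the norepinephrine transporter of sympathetic nerve endings, lay on opposite sides of saline at the 2 times. Its levels were 1.20, 0.93, and 1.27 on saline, 2.18, 3.12, and 1.80 on E2 2 hr, 2.23, 2.60, and 1.88 on E3 2 hr, -0.11, -0.02, and -0.42 on E2 24 hr, and 0.41, -0.15, and 0.19 on E3 24 hr. All 6 arrays at 2 hr lay above saline and all 6 at 24 hr below it, with no overlap in either direction. The 2 hr changes of 2.35-fold after E2 (limma adjusted p = 0.00275) and 2.14-fold after E3 (limma adjusted p = 0.00753) missed the p cutoff and were not called. The 2.49-fold fall after E2 at 24 hr was called (adjusted p = 0.0019), a call lost without any of 9 single arrays, and the fall from 2 to 24 hr was 5.86-fold for E2 and 4.25-fold for E3.

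*Slc6a14*, *Slc6a15*, and *Slc36a1*, which carry neutral amino acids, fell at 2 hr after E2. *Slc6a14* (ATB0,+), which takes up both neutral and cationic amino acids, was at -4.48, -4.39, and -4.86 on saline, -5.56, -5.87, and -5.95 on E2 2 hr, -5.51, -5.19, and -5.61 on E3 2 hr, -3.68, -3.95, and -3.60 on E2 24 hr, and -4.05, -4.31, and -3.95 on E3 24 hr. It thus lay below saline on all 2 hr arrays and above it on all 24 hr arrays, with a called 2.32-fold fall after E2 at 2 hr (adjusted p = 4.33e-05) and a level 1.79-fold above saline after E2 at 24 hr, under the 2-fold limit. From 2 to 24 hr it rose 4.14-fold in the E2 groups and 2.52-fold in the E3 groups, both called. With normexp background correction none of these 3 calls held (log2 -0.76 at 2 hr after E2, 1.39 and 1.46 from 2 to 24 hr). *Slc6a15* (B0AT2, for branched-chain amino acids and proline) read -2.29, -2.28, and -2.45 on saline, -3.41, -3.98, and -3.65 on E2 2 hr, -3.32, -3.21, and -3.97 on E3 2 hr, -3.15, -2.98, and -3.04 on E2 24 hr, and -2.51, -2.70, and -2.70 on E3 24 hr. Its falls of 2.53-fold after E2 and 2.24-fold after E3 at 2 hr were both called, the latter not with normexp (log2 -1.04). *Slc36a1* (PAT1, a proton-coupled carrier also of lysosomes) fell 2.26-fold after E2 at 2 hr on its brightest probe, from -0.98, -0.86, and -1.04 to -1.94, -2.24, and -2.22 (adjusted p = 9.28e-07). It read -1.75, -1.76, and -1.52 on E3 2 hr, -0.92, -0.94, and -0.93 on E2 24 hr, and -0.50, -0.54, and -0.37 on E3 24 hr. Its other probe was not well above background on any saline or E3 2 hr array. It was at least 1.45-fold higher than saline after E2 at 2 hr and was not called. That probe was tested only because estrogen arrays detected it, so this bound is a description.

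**Figure D3:**
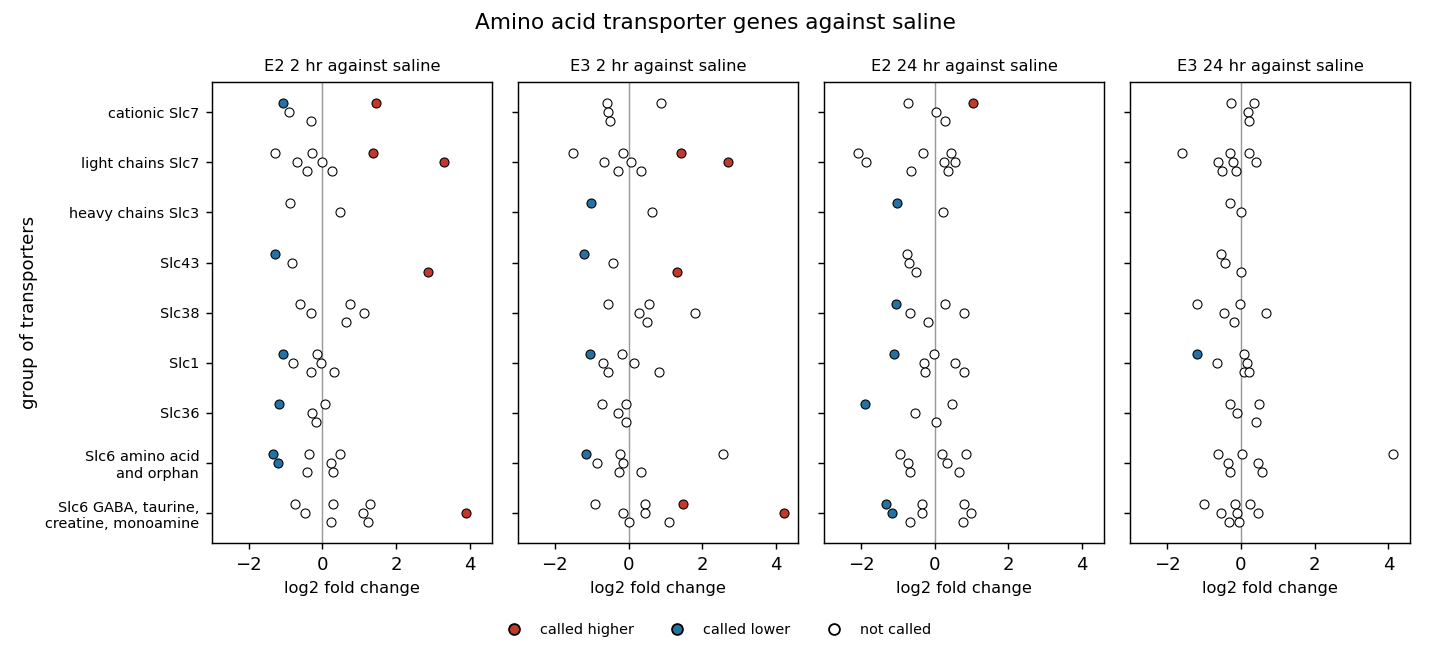
Log2 fold change against saline of 47 transporters in 9 groups by family and substrate (rows; *Slc7a14*, in no group, is left out), for each of the 4 estrogen groups (panels), with red for genes called higher, blue for genes called lower, and white for genes not called. Calls in the Slc7 light chains are higher and at 2 hr, calls in the Slc1 and Slc36 rows are lower, and 1 gene is called after E3 at 24 hr; the white point above 4 there is *Slc6a18*, which is not well above background on saline.

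The Slc1 carriers called against saline fell, both of them glutamate carriers. *Slc1a1* (EAAC1) fell 2.08-fold after E2 and 2.07-fold after E3 at 2 hr and had log2 changes of -0.01 and 0.09 at 24 hr, and its second probe gave the same calls. Both falls were close to the 2-fold limit, and the E2 call was lost without any of 3 single arrays (E2 2 hr replicates 1 and 2, saline replicate 1) and with no scaling (log2 -0.97), the E3 call without E3 2 hr replicate 3 or saline replicate 1. *Slc1a3* (GLAST) read -0.42, -0.67, and -0.01 on saline, -0.24, -0.60, and -0.41 on E2 2 hr, -1.12, -0.83, and -1.21 on E3 2 hr, -1.40, -1.48, and -1.51 on E2 24 hr, and -1.13, -1.58, and -1.97 on E3 24 hr. All 24 hr arrays were below saline, and the falls of 2.14-fold after E2 and 2.29-fold after E3 were called, the latter being the only transporter call after E3 at 24 hr and lost without E3 24 hr replicate 3. The E2 call was lost without saline replicate 3 (log2 -0.92) and without the 2 arrays highest in pancreas markers (log2 -1.09, p just over the cutoff). With normexp both log2 changes were -1.07 and missed the p cutoff. On its second probe the fall was already there at 2 hr, at log2 -2.19 after E2 and -2.20 after E3, both called. The brightest gave -0.05 and -0.69. Its dimmest probe was also called lower (-2.43 and -2.96), but the size of these changes is not sure. That probe was at -8.21 on E2 2 hr replicate 2 and -8.73 on E3 2 hr replicate 1. The lowest signals well above background on those arrays were -8.01 and -7.77. *Slc1a5* (ASCT2, for glutamine), at 3.20, 3.23, and 3.26 on saline, read 2.77, 3.22, and 3.24 on E2 2 hr, 3.35, 3.47, and 3.34 on E3 2 hr, 3.75, 3.79, and 3.80 on E2 24 hr, and 3.46, 3.29, and 3.19 on E3 24 hr. The E2 24 hr arrays stood apart from all the others at 1.47-fold saline, under the 2-fold limit (adjusted p = 0.00134).

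The sodium-driven system A carriers changed by different amounts on different probes. *Slc38a2* (SNAT2) had levels of 2.89, 3.07, and 2.97 on saline, 3.63, 3.74, and 3.47 on E2 2 hr, 3.48, 3.61, and 3.38 on E3 2 hr, 3.15, 3.32, and 3.34 on E2 24 hr, and 2.97, 3.00, and 2.88 on E3 24 hr. All 2 hr arrays lay above saline, by 1.55-fold for E2 and 1.43-fold for E3, and neither was called. Of its 3 other probes, 2 were called higher after E2 at 2 hr (log2 1.15 and 1.38) and the third gave 0.13. *Slc38a1* (SNAT1) changed 1.67-fold after E2 and 1.48-fold after E3 at 2 hr on the brightest of 6 probes, while 4 of the other 5 probes were called after E2 (log2 1.26 to 1.59). Counts by brightest probe therefore leave both genes out although 2 of 4 probes of *Slc38a2* and 4 of 6 probes of *Slc38a1* pass the criteria after E2. *Slc38a4* (SNAT4) fell 2.08-fold after E2 at 24 hr (adjusted p = 7.03e-05), but its other probe gave a log2 change of 0.46, and with normexp the fall was just under 2-fold (log2 -0.98).

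*Slc7a8* and *Slc7a11* are light chains that no comparison with saline called. *Slc7a8* (LAT2) was at 3.56, 3.32, and 3.46 on saline, 2.90, 3.38, and 2.02 on E2 2 hr, 3.01, 2.92, and 2.44 on E3 2 hr, 2.94, 2.74, and 2.77 on E2 24 hr, and 3.04, 3.17, and 3.51 on E3 24 hr, with the E2 2 hr arrays spread over more than 2-fold. *Slc7a11* (xCT, which trades glutamate for cystine) read -0.63, -0.88, and -0.56 on saline, -1.25, -1.27, and -0.41 on E2 2 hr, -0.22, -0.30, and -0.58 on E3 2 hr, -0.18, -0.32, and -0.27 on E2 24 hr, and -0.81, -1.31, and -1.53 on E3 24 hr. All 3 E2 24 hr arrays lay above saline and 2 of the 3 E3 24 hr arrays below it. Of the heavy chains, *Slc3a1* (rBAT) was dim and fell 2.04-fold both after E3 at 2 hr and after E2 at 24 hr, and with normexp background correction its log2 changes were -0.60 and -0.59 and neither was called.

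Of the 48 transporters, 19 were called in at least 1 comparison with saline (39.6%, against 36.5% of all probes) and 29 in none. Of these 29, 26 had changes under 2-fold at 2 hr after E2, 26 at 2 hr after E3, 27 at 24 hr after E2, and 26 at 24 hr after E3. They include *Slc6a8*, the creatine transporter (log2 0.30, 0.45, -0.35, and -0.06 in that order), *Slc6a9*, the glycine transporter GlyT1 (-0.37, -0.23, 0.33, and 0.56), and *Slc7a7*, the y+LAT1 light chain (-0.42, -0.28, -0.32, and 0.40). Among the uncalled changes over 2-fold was that of *Slc7a10* (Asc-1, a light chain that fat cells also have), at log2 -2.07 after E2 at 24 hr (limma adjusted p = 0.022).

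At 24 hr, 1 transporter rose and 6 fell after E2, 14.6% against 18.1% of all probes, of which 6.94% were higher and 11.1% lower. After E3, 0 rose and 1 fell, 2.08% against 3.81% of all probes, of which 1.85% were higher and 1.96% lower. At limma adjusted p under 0.05 with no fold limit, 11 rose and 17 fell after E2 (58.3%, against 61.4% of all probes), and 6 rose and 8 fell after E3 (29.2%, against 34.1%). The falls after E2 were *Slc36a2*, *Slc6a2*, *Slc6a6*, *Slc1a3*, *Slc38a4*, and *Slc3a1*. Leaving out E2 24 hr replicate 2 or replicate 3 lowered the 7 calls to 4, leaving out saline replicate 3 gave 6 but without *Slc1a3*, *Slc6a2*, and *Slc7a1*, and leaving out both E2 24 hr replicate 2 and E3 2 hr replicate 2, the arrays highest in pancreas markers, lowered them to 3.

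*Slc36a2* (PAT2, a proton-coupled carrier of glycine, alanine, and proline that fat cells also have) had the largest called fall after E2 at 24 hr. It read -1.06, -0.96, and -0.42 on saline, -1.18, -1.58, and -0.55 on E2 2 hr, -1.25, -0.49, and -0.94 on E3 2 hr, -2.61, -2.87, and -2.62 on E2 24 hr, and -0.76, -1.39, and -1.20 on E3 24 hr. On this probe only the E2 24 hr arrays left the common range, with a fall of 3.70-fold (log2 -1.89 ± 0.28 SE, adjusted p = 8.78e-05), and the second probe gave -1.99. On the second probe the 2 hr means lay below saline too, by log2 -0.91 after E2 and -1.38 after E3, neither called. Its level on E3 2 hr replicate 1 was -7.00, near that of E2 24 hr replicate 1 (-7.01). The 6 fat markers averaged -0.63, -0.84, and 0.07 on the 3 E2 24 hr arrays, 1.71, -0.05, and 2.40 on saline, and 1.84, 0.84, and -0.80 on E3 24 hr. None of the 6 was called, but after E2 at 24 hr all 6 had means below saline and 4 were lower at limma adjusted p under 0.05 (66.7%, against 61.4% of all probes), with 0 after E3. Their part in the fall was not tested.

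Estriol and estradiol were given at the same dose and times, and the 48 transporters were compared at each time. At 2 hr, 0 were higher and 1 lower after E3 than after E2, 2.08% against 7.37% of all probes, of which 1.54% were higher and 5.83% lower. At 24 hr 1 was higher and 0 lower, 2.08% against 4.85% of all probes, of which 2.77% were higher and 2.07% lower. At limma adjusted p under 0.05 with no fold limit, 6 were higher and 6 lower at 2 hr (25%, against 43.3% of all probes), and 11 higher and 9 lower at 24 hr (41.7%, against 36.5%). The median absolute log2 difference was 0.28 at 2 hr, where all probes had 0.36, and 0.42 at 24 hr, where all probes had 0.33.

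The transporter called at 2 hr was *Slc43a2*, lower after E3 by 2.95-fold (log2 -1.56, 95% interval -1.98 to -1.14, adjusted p = 6.82e-05). The arrays of the groups did not overlap on the brightest probe, but the other probe gave a difference of -0.07. The difference between these groups, which also differ in strain, slides, and scan, was thus seen on 1 of 2 probes. The most distant *Slc7a6* probe, well above background in both 2 hr groups, was also lower after E3 (-1.77, called), whereas the brightest gave 0.07 with a 95% interval of -0.21 to 0.35. For *Slc7a5* the E3 arrays were all below the E2 arrays at 2 hr, by 1.51-fold (log2 -0.60, interval -0.81 to -0.38, adjusted p = 0.000518), which passed the p cutoff but not 2-fold. *Slc6a13*, in contrast, gave a difference of 0.33 with an interval of -0.39 to 1.04, which neither shows a difference nor limits it to under 2-fold.

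The transporter called at 24 hr was *Slc36a2*, 3.00-fold higher after E3 (log2 1.58, 95% interval 0.98 to 2.18, adjusted p = 0.000941), and its second probe was also called (1.45). *Slc6a6* was 1.78-fold higher after E3 (interval 0.55 to 1.12, adjusted p = 0.000497) and *Slc3a1* 1.66-fold higher (adjusted p = 0.00086), both past the p cutoff and under 2-fold. In the other direction *Slc7a5* was 1.45-fold lower after E3 (log2 -0.54, interval -0.75 to -0.32), *Slc7a1* 1.74-fold lower (interval -1.26 to -0.34, turned to log2 0.54 with normexp, which moved the median of all probes to 0.44), *Slc6a13* 2.12-fold lower (interval -1.80 to -0.37, limma adjusted p = 0.0219, not called), and *Slc7a11* 1.94-fold lower (interval -1.45 to -0.46). All 3 E3 arrays of each of these 4 genes lay below all 3 E2 arrays at 24 hr. *Slc3a2* (-0.22, interval -0.50 to 0.05) and *Slc1a1* (0.10, interval -0.28 to 0.48) had differences whose intervals stay within 2-fold.

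**Figure D4:**
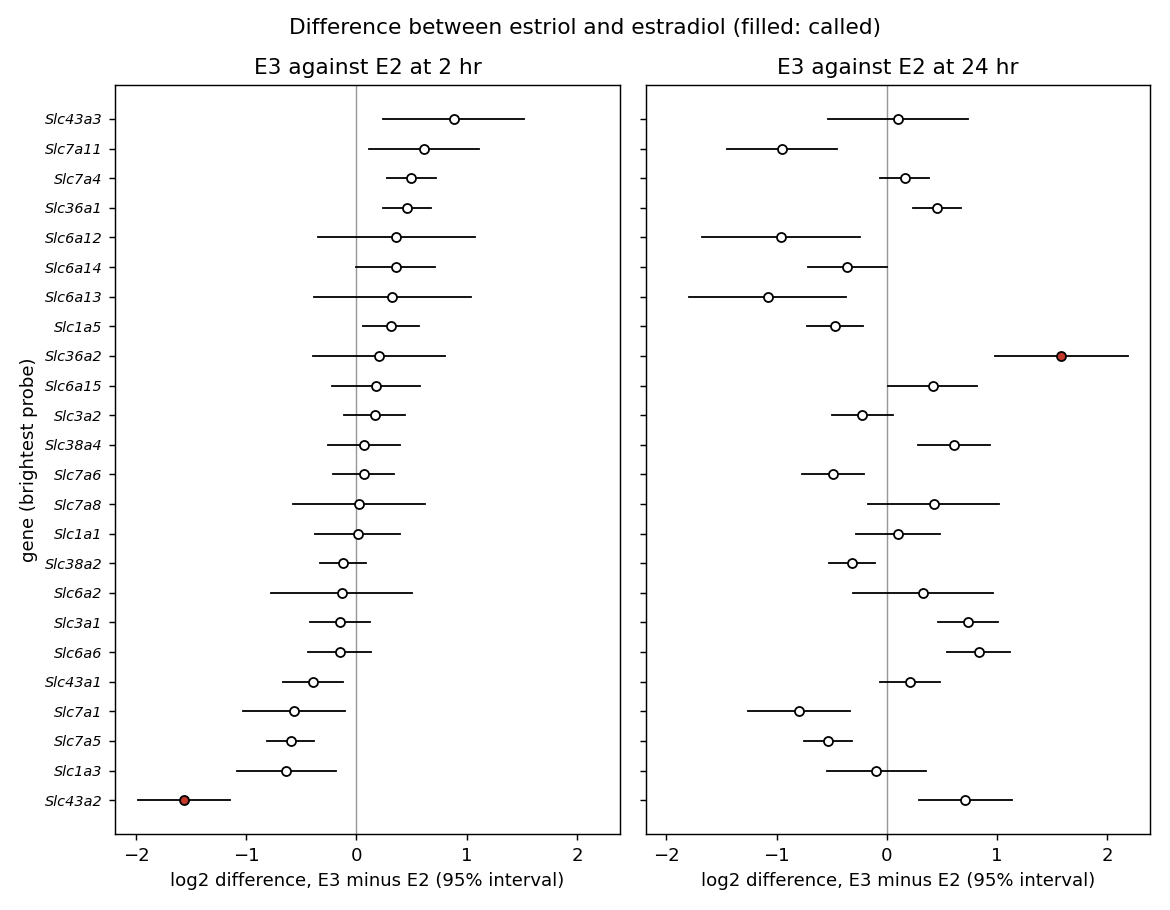
Log2 difference between the E3 and E2 groups (3 arrays each) at 2 hr (left) and 24 hr (right) for 24 transporters, as points with 95% intervals from limma, filled where called. *Slc43a2* at 2 hr (-1.56) and *Slc36a2* at 24 hr (1.58) are filled, and *Slc7a5* lies below 0 at both times.

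From 2 to 24 hr, 6 transporters were higher and 7 lower in the E2 groups (27.1%, against 31.1% of all probes, 13.9% higher and 17.2% lower). In the E3 groups 3 were higher and 7 lower (20.8%, against 16.1% of all probes, 9.65% higher and 6.47% lower). Lower at 24 hr than at 2 hr in both were *Slc7a5* (8.24-fold and 7.90-fold), *Slc6a13* (7.49-fold and 19.9-fold), *Slc43a2* (11.8-fold and 2.45-fold), and *Slc6a2*. The *Slc43a2* folds are those of the brightest probe, and with normexp its E3 fall was not called (log2 -0.99). Its other probe had log2 changes against saline of 1.97 (E2) and 1.90 (E3) at 2 hr and of -0.35 and -0.03 at 24 hr. Higher in both the E2 and E3 groups were *Slc1a1* (2.07-fold and 2.20-fold), *Slc36a1* (2.30-fold in each), and *Slc6a14*. All 3 were lower than saline at 2 hr on their brightest probes and close to saline or above it at 24 hr. The *Slc1a1* call for E2 was lost without any of 3 single arrays and with no scaling (log2 0.93), and that for E3 without E3 2 hr replicate 3. With the mean over all probes neither *Slc36a1* change was called (log2 0.42 and 1.90). *Slc6a4*, the serotonin transporter, was lower by 3.89-fold in the E2 groups without a call against saline. Differences between E3 and E2 that changed from 2 to 24 hr were called for 2 transporters (4.17%, against 15.5% of all probes, 11.1% toward higher and 4.39% toward lower), *Slc43a2* and *Slc7a11*.

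Within the slide that held saline replicate 3 and the 3 E3 2 hr arrays, the 9 transporters called after E3 at 2 hr all differed by at least 2-fold in the called direction. These are the arrays that gave the calls, set against 1 of the same saline arrays, so this is a description and no independent check. The values were 4.33 for *Slc6a13*, 2.60 for *Slc7a5*, 2.00 for *Slc6a12*, 1.45 for *Slc7a6*, and 1.37 for *Slc43a2* on the log2 scale, and -1.02 to -1.36 for the 4 that fell (*Slc1a1*, *Slc3a1*, *Slc43a1*, *Slc6a15*).

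Some transporters stood out on single arrays on which transcripts of other tissues were also high. *Slc38a3* (SNAT3, a glutamine carrier of liver and kidney) was at -3.85 on saline replicate 1 and at -5.36 and -5.30 on the others, but it was higher still on the E3 2 hr arrays (-3.52 to -2.41) and at -4.32 to -3.36 on E2 2 hr, where the liver markers were lowest. *Slc7a9*, the light chain of kidney and gut that pairs with rBAT, was at -3.21 against -5.34 and -5.34. Saline replicate 1 also had the highest mean of the liver markers (-0.21) and of the 4 kidney markers (-4.55). *Slc38a5* (SNAT5) was at -0.10 on E3 2 hr replicate 2, the array with the highest pancreas markers, and at -1.41 and -2.14 on the other E3 2 hr arrays. On E2 24 hr replicate 2, with a pancreas mean of 4.51, it was at -0.45, against -0.75 and -0.89 on the other E2 24 hr arrays. None of these 3 was called against saline, and the part of the other tissues in their levels was not tested. *Slc6a18*, a carrier known from kidney, was not well above background on any saline or E2 array and was so on all 3 E3 24 hr arrays (-3.72, -7.56, and -7.48) and on 1 E3 2 hr array (-3.10, against -10.1 and -10.2 on the others). At 24 hr after E3 it was at least 3.63-fold higher than on saline, and at least 1.51-fold higher without E3 24 hr replicate 1. The gene was tested only because these 3 arrays detected it, so this is a description, and it was not called. One E2 24 hr value of this gene was missing.

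**Figure D5:**
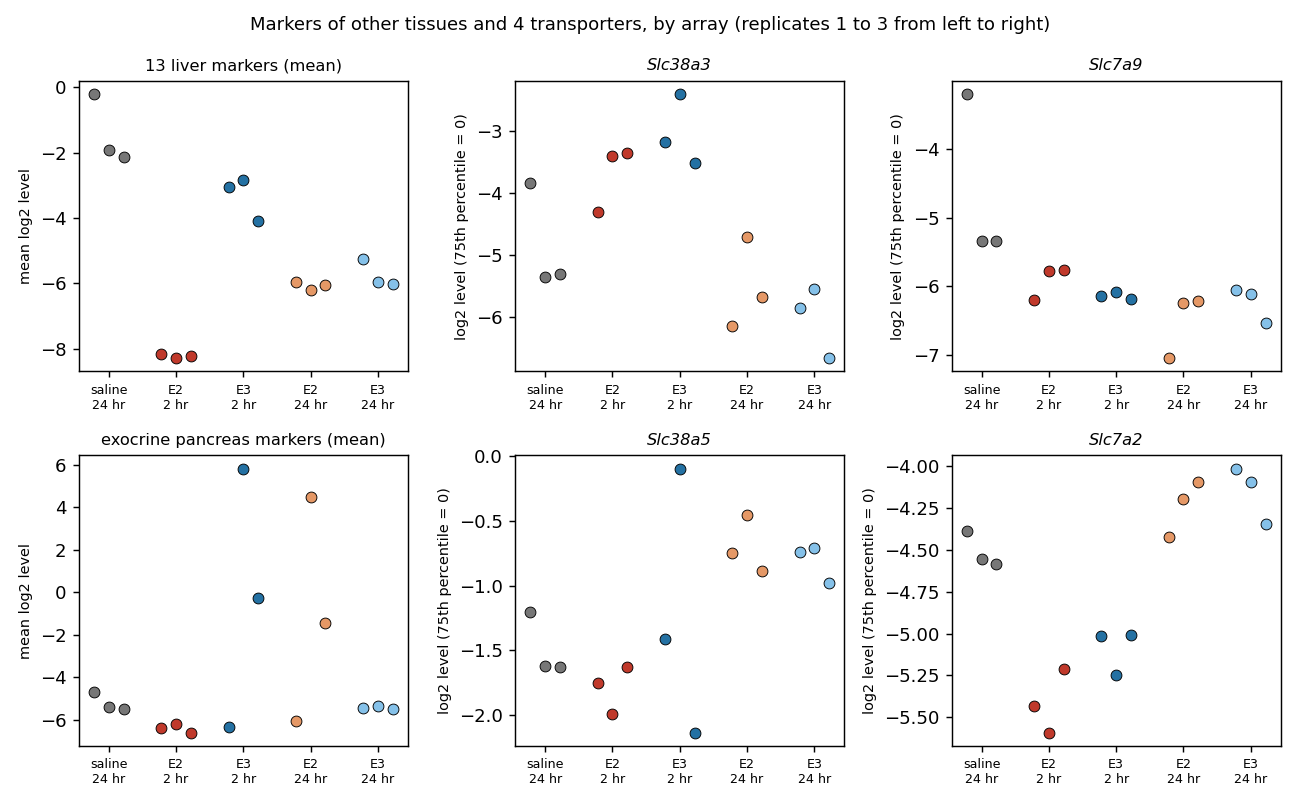
Mean log2 level of 13 liver markers and of 13 exocrine pancreas markers (left column) and log2 level of *Slc38a3*, *Slc7a9*, *Slc38a5*, and *Slc7a2* (other panels) on each array, replicates 1 to 3 of each group from left to right. Saline replicate 1 is highest in liver markers and *Slc7a9*, E3 2 hr replicate 2 is highest in pancreas markers and *Slc38a5*, and *Slc7a2*, a cationic carrier known from liver, is lower on all 2 hr arrays.

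In the amino acid response, cells short of amino acids raise ATF4, which drives transporters, tRNA synthetases, and serine and asparagine synthesis. Of 28 such genes, 9 rose and 0 fell after E2 at 2 hr (32.1%, against 21.2% of all probes), and 6 rose and 0 fell after E3 at 2 hr (21.4%, against 13.8%). At limma adjusted p under 0.05 with no fold limit, 12 were higher and 10 lower after E2 (78.6%, against 61.9% of all probes), and 14 higher and 4 lower after E3 (64.3%, against 49.7%). *Atf4* rose 5.39-fold after E2 and 4.33-fold after E3, *Chac1*, which breaks down glutathione, 9.86-fold and 7.11-fold, and *Cebpb* 10.2-fold and 4.97-fold. At 24 hr 9 rose and 1 fell after E2 (35.7%, against 18.1% of all probes), among them *Psat1* and *Phgdh* of serine synthesis (4.07-fold and 2.28-fold) and asparagine synthetase *Asns* (2.47-fold), and *Ddit3* fell 2.28-fold. At adjusted p under 0.05, 16 were higher and 7 lower then (82.1%, against 61.4% of all probes). After E3 at 24 hr, 0 of the 28 were called (3.81% of all probes were), with 6 higher and 1 lower at limma adjusted p under 0.05 (25%, against 34.1%). E3 was lower than E2 at 24 hr for 6 of the 28 (21.4%, against 2.07% of all probes called lower and 4.85% in either direction). These were *Stc2*, *Mthfd2*, *Psat1*, *Asns*, *Aars*, and *Phgdh*, lower by 2.01-fold (*Phgdh*) to 4.13-fold (*Stc2*).

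Partner proteins and sensors of amino acids were read as well. Of 4 transporter partners, *Tmem27* (collectrin, a partner of Slc6 carriers in kidney) was called lower after E2 at both times, and no other was called against saline. The share was 25% each time, against 10.7% and 11.1% of all probes called lower and 21.2% and 18.1% in either direction. *Tmem27* was well above background on only 1 of the 3 E2 2 hr arrays (-8.52 to -7.92, against -6.78 to -6.45 on saline) and on 2 of the 3 E2 24 hr arrays (-8.23 to -7.47), so no fold is given. Of 14 tested genes that sense amino acids for mTORC1, 1 rose and 3 fell after E2 at 2 hr (28.6%, against 21.2% of all probes) and 0 rose and 2 fell after E3 (14.3%, against 13.8%). At adjusted p under 0.05, 5 were higher and 7 lower after either estrogen (85.7%, against 61.9% of all probes after E2 and 49.7% after E3). *Sesn1*, an inhibitor of this pathway, fell by log2 -2.43 and -2.02, and *Sesn3* by -1.27 and -1.41. Of 17 other amino acid and peptide carriers tested, 1 rose and 2 fell after E2 at 2 hr (17.6%, against 21.2% of all probes), with *Slc17a6*, a vesicular glutamate transporter, higher by log2 2.46, and at 24 hr after E2 *Slc25a15*, the mitochondrial ornithine carrier, rose by 1.45.

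Promoter windows of RefSeq (GRCm38.p6, 250 bases before to 50 after a start) were given for 33 of the 48 transporters, 53 windows in all. Motifs were searched on both strands. The palindromic estrogen response element, GGTCA and its reverse complement with 3 bases of any kind between them, was in none of the 53 and in 0.07% of all 32851 windows. The Sp1 GC box GGGCGG was in 54.7% of the transporter windows and 35.7% of all windows, the AP-1 site TGANTCA in 11.3% and 7.81%, the E-box CACGTG in 13.2% and 7.15%, and the C/EBP-ATF element TGATGNAA in 7.55% and 3.97%. These shares are a description of the letters in these windows and say nothing on binding. Promoters of *Slc6a13* and *Slc43a2*, which rose most after E2 at 2 hr among the genes with a window, are printed with the GC box in capitals, and that of *Slc7a11* with the C/EBP-ATF element in capitals, each as the 250 bases before a start. Of the 3 windows of *Slc6a13* and the 2 of *Slc43a2*, the first is printed; the other *Slc6a13* windows hold no GC box and the other *Slc43a2* window holds 1.
*Slc6a13*, chr6:121300038-121300287, plus strand: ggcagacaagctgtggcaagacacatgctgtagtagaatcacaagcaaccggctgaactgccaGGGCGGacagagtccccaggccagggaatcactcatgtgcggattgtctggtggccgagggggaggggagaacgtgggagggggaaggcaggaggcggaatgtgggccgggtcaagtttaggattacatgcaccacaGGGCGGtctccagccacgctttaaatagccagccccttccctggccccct
*Slc43a2*, chr11:75531444-75531693, plus strand: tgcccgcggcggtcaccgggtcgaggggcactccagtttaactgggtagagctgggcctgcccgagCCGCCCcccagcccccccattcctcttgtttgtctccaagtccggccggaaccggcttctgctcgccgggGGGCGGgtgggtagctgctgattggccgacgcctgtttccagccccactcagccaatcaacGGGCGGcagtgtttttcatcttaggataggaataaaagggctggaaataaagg
*Slc7a11*, chr3:50443614-50443863, minus strand: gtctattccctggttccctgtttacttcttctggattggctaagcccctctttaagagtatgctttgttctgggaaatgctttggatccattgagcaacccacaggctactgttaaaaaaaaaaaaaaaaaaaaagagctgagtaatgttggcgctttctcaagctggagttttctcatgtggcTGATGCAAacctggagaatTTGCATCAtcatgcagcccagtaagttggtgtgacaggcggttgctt
The GC boxes begin 187 and 50 bases before this start in *Slc6a13* and 184, 114, and 53 bases before it in *Slc43a2*, and the C/EBP-ATF elements 66 and 47 bases before it in *Slc7a11*, on either strand.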

How the data were processed

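Uterine RNA of 15 samples was hybridised to one-color Agilent mouse arrays. Per the file headers and the submitters' notes, the authors scanned each array and Agilent Feature Extraction (9.5.3.1 in the headers) made the deposited intensity values, the processed signal per spot after background correction; probe positions are those of the header's build, mm7. The series' value table held the same values.

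Control spots and outlier flags were left out, and spots of 1 probe were averaged. Levels were log2 intensity minus log2 of the array's 75th percentile (2989 to 4412), computed from the deposited signal. Of 41174 probes, 34760 were well above background on at least 2 of 3 arrays of a group and were tested. Group means of all 15 arrays were fitted in limma 3.58.1 (R 4.3.3), and a probe was called at p under 0.001 and at least 2-fold, with p-values adjusted over all tested probes by Benjamini-Hochberg. Precision is set by the 3 arrays in each group. The script was tested on simulated data.

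The transporters and gene lists were chosen with earlier results of these data known. Values on all arrays are given for the 16 called transporters with the largest change against saline, 9 genes named by role (*Slc3a2*, *Slc7a5*, *Slc7a1*, *Slc7a11*, *Slc38a2*, *Slc1a5*, *Slc6a6*, *Slc6a14*, *Slc7a8*), and those called between E3 and E2. *Slc38a1*, *Slc38a3*, *Slc38a5*, *Slc7a9*, *Slc7a10*, *Slc7a7*, *Slc7a2*, *Slc6a8*, *Slc6a9*, *Slc6a4*, and *Slc6a18* were named after their values were seen. Alternatives were other background correction, scaling, filters, call rules, probe choice, blocks, and leaving out arrays.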

Additional observations from a re-analysis of the deposited data

Results flagged for a closer look

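The difference between E3 and E2 changed from 2 to 24 hr for 2 transporters, by the limma interaction term. For *Slc43a2*, E3 minus E2 went from -1.56 at 2 hr to 0.71 at 24 hr, a change of 2.27 ± 0.27 SE on the log2 scale (adjusted p = 5.54e-05), and its other probe gave -0.07 and 0.33. For *Slc7a11*, it went from 0.61 to -0.96, a change of -1.57 ± 0.32 SE (adjusted p = 0.00197), and leaving out any of 8 single arrays took the p over 0.001 (0.00108 to 0.00138). The E2 2 hr arrays enter both values, and their strain, slides, and scan cannot be told apart from the compound and time.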

How the results depend on the processing

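Counts of called transporters were 11 (E2 2 hr), 9 (E3 2 hr), 7 (E2 24 hr), and 1 (E3 24 hr) against saline, 1 between E3 and E2 at each time, 13 (E2) and 10 (E3) from 2 to 24 hr, and 2 for the interaction. Normexp background correction gave 3 for E2 24 hr, 0 for E3 24 hr, and 6 from 2 to 24 hr after E3, and moved the median of all probes to 0.32 for E3 24 hr and 0.44 for E3 against E2 at 24 hr. Without scaling, E3 24 hr gave 2 and the interaction 1. Without the filter on dim probes, E3 against E2 at 2 hr gave 2. At adjusted p under 0.05 and 2-fold, E3 24 hr gave 2, E3 against E2 gave 2 at 2 hr and 2 at 24 hr, and the interaction 5. At p under 0.001 with no fold limit, the counts against saline were 18, 18, 13, and 4, E3 against E2 gave 4 and 8, E3 from 2 to 24 hr gave 23, and the interaction 7. The mean over all probes of a gene gave 0 for E3 against E2 at 2 hr and 1 for the interaction, and turned *Slc1a3*, E2 24 hr against 2 hr, to 0.0152. In alternatives chosen after seeing the data, E3 against E2 at 24 hr gave 2 without the E2 2 hr arrays, and E2 24 hr gave 3 without the 2 arrays highest in pancreas markers. The causes were not tested.

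Leaving out 1 array gave 8 to 13 for E2 2 hr, 6 to 9 for E3 2 hr, 4 to 8 for E2 24 hr, 0 to 2 for E3 24 hr, 1 to 2 for E3 against E2 at each time, 12 to 14 and 8 to 11 from 2 to 24 hr, and 1 to 4 for the interaction. The replicate numbers showed no clear pairing of the samples. Same-numbered arrays of different groups correlated at -0.47 to 0.55 (median 0.03), with 10 of 30 pairs over 0.1. Different-numbered arrays correlated at -0.51 to 0.63 (median 0.02), with 17 of 60 pairs over 0.1. With the replicate block the counts were 10 for E2 2 hr and 8 for E3 2 hr, and the others as before.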

Other observations

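Among carriers outside the 7 families, *Slc25a13*, a mitochondrial aspartate and glutamate carrier, fell after both estrogens at 2 hr (log2 -1.10 after E2 and -1.24 after E3). *Slc17a6* was lower after E3 than after E2 at 2 hr by 3.91-fold, and *Slc25a15* at 24 hr by 2.26-fold.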
